A study of Homo sapiens with 4 samples.

Results

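FOXC1 ChIP-seq in the bladder cancer cell line J82 gave 13228 regions with a peak of both replicates on chromosomes 1 to 22 and X, and 2681 of them (20.3%, 95% Wilson interval 19.6 to 21.0) had their summit in a gene desert. A shared region was formed from peaks of the replicates that overlapped by at least 1 bp, and its summit was the midpoint of the summits of its widest peak in each replicate. A desert region was one whose summit lay in no protein-coding gene body and over 100 kb from every protein-coding transcription start site in GENCODE version 44, lifted to GRCh37. The choice used position and presence in both peak lists, and not their sequence. No limit on height was added to that of the peak lists, so weak peaks were kept. Presence in both lists nevertheless depends on height. Desert peaks found in 1 list alone had a median fold enrichment of 2.57 (replicate 1) and 3.24 (replicate 2), and the shared desert regions 3.79 and 6.49. The other shared regions were 3345 near-gene intergenic regions, which lay outside coding genes but within 100 kb of a start site, 5414 regions in coding gene bodies and 1788 regions within 2 kb of a coding start site, called promoters here.

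The study compared FOXC1-bound DNA with input DNA from J82 cells, to locate enhancers that FOXC1 occupies in relation to chemoresistant side population cells and cisplatin resistance. The 4 libraries were 2 biological replicates of a ChIP with the anti-FOXC1 antibody D8A6 and 2 inputs made without antibody, and each ChIP had been called against its own input. All came from this line alone, which was established from a human urinary bladder tumour and was cultured in DMEM with serum. No other cell type, antibody or FOXC1-depleted control enters these values, so they describe where the antibody enriched DNA in J82.

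FOXC1 belongs to the forkhead transcription factors, which share a winged-helix DNA-binding domain and recognise a core of the kind TGTTTAC, or GTAAACA on the other strand. Forkhead factors bind distal enhancers as well as promoters. Gene deserts are long stretches of a chromosome without protein-coding genes. Several of them flank genes for developmental regulators and are known to hold enhancers that act over long distances, although many other deserts have no assigned function. AP-1, a dimer of proteins of the FOS and JUN families, binds TGACTCA or TGAGTCA and occupies many enhancers in epithelial and cancer cells.

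The sequence at the summits of the strongest desert regions is shown here because 8 of these 10 carried a forkhead-type sequence close to the point of highest enrichment. Every shared region was ranked by −log10 p within each replicate, and its worse rank set the order. For the 10 best-ranked desert regions, the summit base and 50 bases to either side are printed from the plus strand of the GRCh37 reference, the assembly also called hg19. Capitals mark matches on either strand to the forkhead consensus (GTAAACA or GTAAATA or ATAAACA or ATAAATA) or to the extended forkhead element. That element is a longer forkhead-like sequence derived in an earlier look at the highest peaks of these same data, so its presence in the strongest regions is a description.
chr6:156103261-156104300: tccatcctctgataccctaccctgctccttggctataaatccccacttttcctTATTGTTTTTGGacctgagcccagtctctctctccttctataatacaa
chr3:23136190-23137317: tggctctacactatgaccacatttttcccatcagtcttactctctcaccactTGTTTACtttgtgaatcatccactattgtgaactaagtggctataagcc
chr13:75755795-75756854: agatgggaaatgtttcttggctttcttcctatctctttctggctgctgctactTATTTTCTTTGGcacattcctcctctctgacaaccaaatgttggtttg
chr6:14286031-14287063: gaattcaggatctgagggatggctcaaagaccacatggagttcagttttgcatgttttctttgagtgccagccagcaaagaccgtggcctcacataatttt
chr5:72576889-72578009: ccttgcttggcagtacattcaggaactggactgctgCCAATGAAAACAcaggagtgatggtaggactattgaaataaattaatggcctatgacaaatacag
chr9:111235601-111236930: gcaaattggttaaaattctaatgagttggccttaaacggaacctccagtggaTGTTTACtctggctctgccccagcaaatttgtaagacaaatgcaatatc
chr4:105649276-105650265: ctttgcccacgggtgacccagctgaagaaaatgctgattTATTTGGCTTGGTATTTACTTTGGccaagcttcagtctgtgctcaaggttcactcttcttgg
chr5:163187185-163188190: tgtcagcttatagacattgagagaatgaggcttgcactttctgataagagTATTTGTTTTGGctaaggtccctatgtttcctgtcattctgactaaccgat
chr9:93754431-93755528: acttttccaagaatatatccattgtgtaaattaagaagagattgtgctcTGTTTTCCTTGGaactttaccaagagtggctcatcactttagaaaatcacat
chr13:85851522-85852630: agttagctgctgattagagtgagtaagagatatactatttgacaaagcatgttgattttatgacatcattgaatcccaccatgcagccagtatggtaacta
The extended element was present in 6 of the 10 windows and the forkhead consensus in 3, with both in 1 of them. The AP-1 consensus was in none of these 10 windows, and 2 windows held no match to any of the 3 sequences.

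The strongest desert region, chr6:156103261-156104300, is the first sequence above and lay between NOX3, which encodes an NADPH oxidase of the inner ear, and ARID1B, a subunit of SWI/SNF chromatin remodelling complexes. Their start sites were 327 kb and 993 kb away. Its fold enrichment over the local background was 73.6 in replicate 1 and 89.4 in replicate 2 (mean 81.5 ± 11.2, SD, n = 2), and it ranked 3 in the first peak list and 11 in the second. The next, chr3:23136190-23137317, lay 108 kb from UBE2E2, which encodes a ubiquitin-conjugating enzyme, and 722 kb from ZNF385D. Its fold enrichment was 52.0 in replicate 1 and 70.2 in replicate 2. The third, chr13:75755795-75756854, lay 121 kb from TBC1D4, a regulator of glucose transporter trafficking, and 1048 kb from KLF12, and had values of 39.8 and 57.6. All 3 were higher in replicate 2, the direction seen in most desert regions.

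The remaining 9 of the 12 best-ranked desert regions lay on chromosomes 4, 5, 6, 9, 12 and 13. The region chr6:14286031-14287063 had fold enrichments of 35 and 55.3 in replicates 1 and 2 and lay 169 kb from CD83, a surface protein of dendritic cells, and 960 kb from JARID2, a partner of Polycomb repressive complexes. The region chr5:72576889-72578009 had values of 37.5 and 83.9 and lay in the annotated long non-coding RNA (lncRNA) gene ENSG00000249743, 165 kb from FOXD1, another forkhead gene, and 108 kb from TMEM174. Its mean of 60.7 had an SD of 32.8, the highest SD of the 12. The region chr9:111235601-111236930, with values of 39.0 and 55.6, lay 382 kb from ACTL7B and 983 kb from KLF4, a zinc-finger factor of epithelial differentiation.

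The region chr4:105649276-105650265 had fold enrichments of 32.0 and 75.5 and lay in CXXC4-AS1 and a further lncRNA gene. Its flanking coding genes were CXXC4 at 234 kb, an inhibitor of Wnt signalling, and TET2 at 417 kb, which oxidises methylated cytosine in DNA. Its window was the only one of the 10 with both kinds of forkhead match. The regions chr5:163187185-163188190, with values of 38.2 and 49.4, and chr9:93754431-93755528, with 47.9 and 40.6, lay 245 kb from MAT2B and 165 kb from SYK respectively, the latter a tyrosine kinase of immune receptor signalling. The second of these was the only region of the 12 that was higher in replicate 1.

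The last 3 were chr13:85851522-85852630 (27.1 and 46.7), 521.5 kb from SLITRK6, chr12:93483533-93484825 (38.3 and 62.4), 161 kb from EEA1, and chr12:60660111-60661120 (35.2 and 56.9), 497.7 kb from SLC16A7, a monocarboxylate transporter. SLITRK6 encodes a neuronal transmembrane protein and EEA1 an early endosome tether. Both regions on chromosome 12 lay in a lncRNA gene and held an AP-1 match within 50 bp of the summit. All 12 regions had a −log10 q of at least 250 in replicate 1 and at least 431 in replicate 2.

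Desert regions were sparse for the length of sequence they were drawn from. Deserts by this definition covered 818 Mb, or 28.9% of the sequenced bases, and held 20.3% of the shared regions. That is 3.28 desert regions per Mb, beside 4.86 per Mb in near-gene intergenic sequence, 4.89 in coding gene bodies and 8.06 at promoters. Against all other sequence together, the density was 0.627 times as high. The deserts were long: the coding start sites on either side of a desert region were a median of 1033 kb apart (quartiles 571 and 1837 kb).

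Density fell with distance from coding genes, while the strength of the regions changed little. The distance from a desert summit to the nearest coding start site ran from 100.1 to 2330 kb, with a median of 255 kb. At 100 to 200 kb there were 4.34 desert regions per Mb, at 200 to 500 kb 3.21, at 500 to 1000 kb 2.43 and beyond 1000 kb 2.24. The last group held 171 regions. Over these same 4 distance classes the median fold enrichment was 3.79, 3.76, 3.86 and 3.76 in replicate 1 and 6.55, 6.30, 6.62 and 6.19 in replicate 2. The median GC share fell from 39.5% in the first class to 34.5% in the last.

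**Figure D1:**
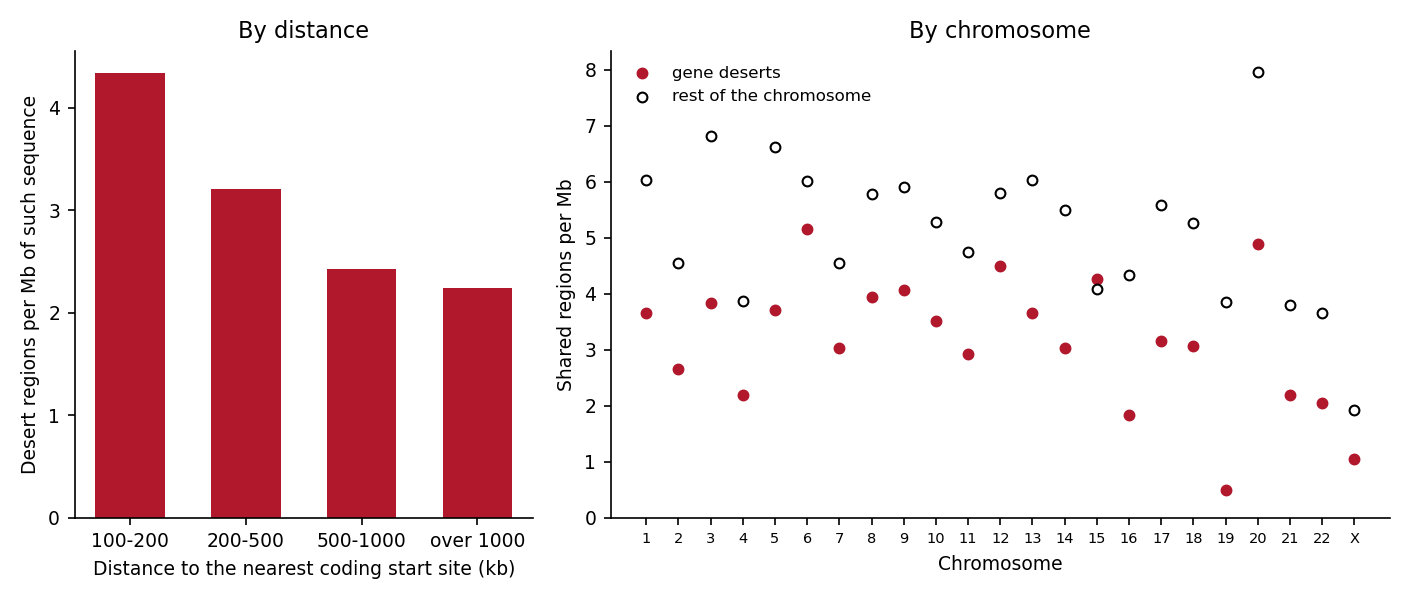
Density of FOXC1 desert regions. Left, desert regions per Mb of sequence (bars, from 0) at 4 distances from the nearest coding start site, falling from 4.34 to 2.24. Right, shared regions per Mb (vertical axis) in deserts (filled points) and in the rest of each chromosome (open points); deserts were lower on 22 of 23 chromosomes.

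On 22 of the 23 chromosomes the deserts held fewer shared regions per Mb than the rest of the chromosome, as the plot of density by chromosome shows. Chromosome 15 was the exception, with 4.26 per Mb in deserts and 4.08 elsewhere. Desert density was highest on chromosome 6, with 272 regions or 5.16 per Mb, and on chromosome 20, with 67 regions or 4.90 per Mb. It was lowest on chromosome 19, where 2 desert regions lay in 3.95 Mb, and on chromosome X, with 54 regions or 1.05 per Mb. The local background moved with only some of these values. Its median over desert regions in replicate 1 was 5.39 reads on chromosome 6, 7.52 on chromosome 20, 4.78 on chromosome 19 and 4.16 on chromosome X. Chromosome 15, with 4.26 desert regions per Mb, also had a median of 4.16. These background values, and the read numbers below, were solved from the fold enrichment and −log10 p of each peak. The number of copies of each chromosome in J82 was not measured here, and its part in the densities was not tested.

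The 5 desert regions farthest from coding genes showed that the interior of the largest deserts was not empty. Of these 5, 4 lay on chromosome 4 between PCDH7, a protocadherin gene, and ARAP2, a regulator of small GTPases. The farthest, chr4:33717567-33718019, lay 2330 kb from ARAP2 and had a fold enrichment of 3.87 (replicate 1) and 5.54 (replicate 2). The region chr4:33931980-33932586, 2115 kb from ARAP2, was the strongest of the 5, with values of 11.3 and 23, and stood 202 among the 2681 desert regions. The other 2 on this chromosome were chr4:33109485-33109814 (2.50 and 3.20) and chr4:33961069-33961538 (4.26 and 4.18). The region chr4:33109485-33109814 was weakly supported, with a −log10 q of 0.969 in replicate 1 and 3.23 in replicate 2. The fifth, chr18:37281594-37282237, lay in the lncRNA gene MIR924HG, 2136 kb from CELF4, and had values of 2.53 and 6.35. At the other end, the 3 desert regions just over 100 kb from a start site lay 100.1 kb from S1PR1, 100.2 kb from HS3ST1 and 100.2 kb from PLEKHG7. Their fold enrichments were 3.29, 2.66 and 2.82 in replicate 1 and 4.54, 6.50 and 5.17 in replicate 2. The 3 intergenic regions just under it, at 99.97 kb from SNX5, 99.93 kb from TMTC3 and 99.82 kb from RAPGEF1, had 4.26, 3.42 and 2.21 in replicate 1 and 9.72, 6.31 and 11.6 in replicate 2.

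FOXC1 enrichment in deserts was about as high as elsewhere in the genome, with small differences in replicate 2. The fold enrichment of desert regions ran from 1.51 to 73.6 in replicate 1, with a median of 3.79 and quartiles of 2.97 and 5.71. In replicate 2 it ran from 1.48 to 89.4, with a median of 6.49 and quartiles of 4.39 and 10.5. Near-gene intergenic regions had medians of 3.74 and 6.79. In replicate 1, 51.1% of desert regions lay above the near-gene median (95% interval 49.2 to 53.0), an interval that included the 50% of like groups. In replicate 2, 46.6% did (44.7 to 48.5), a small difference towards lower values, but over all replicate 2 peaks, shared or not, the share was 53.2% (52.1 to 54.4), in the opposite direction. Against coding gene bodies the shares were 49.1% (47.2 to 51) in replicate 1 and 46.3% (44.4 to 48.2) in replicate 2. Intervals here and below cover counting error over regions and not the spread between cultures, for which n is 2.

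The local background solved for desert regions was higher than that near genes. It was computed from the fold enrichment itself, so it is not an observation separate from the lower fold in replicate 2. The background solved for replicate 2 had a median of 5.02 reads in deserts and 4.86 in near-gene intergenic regions, and 60.1% of desert regions lay above the near-gene median (58.2 to 61.9). In replicate 1 the medians were 5.39 and 5.37, with 54.9% above (53.1 to 56.8). The reads at the summit had medians of 44 in deserts and 45 near genes in replicate 2, with 48.2% of desert regions above the near-gene median (46.3 to 50), and of 25 and 24 in replicate 1, with 50.5% above (48.6 to 52.4). Base composition also differed, with a median GC share within 250 bp of the summit of 37.9% in deserts and 41.7% near genes. The part of composition in the background was not tested. Very high background was rare: 5 desert regions in replicate 1 and 7 in replicate 2 exceeded 3 times the median of all shared regions.

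A −log10 q of at least 5 in both replicates was reached by 1373 desert regions (51.2%, 49.3 to 53.1). The background share over all 13228 shared regions was 50.7%. Desert regions exceeded near-gene intergenic regions by 0.898 percentage points (−1.64 to 3.44) and promoters by 3.39 (0.401 to 6.38), and lay 0.506 points below coding gene bodies (−2.82 to 1.81). Of the differences, that from promoters excluded 0. Among the 500 strongest shared regions, 103 (20.6%, 17.3 to 24.4) were desert regions, and among the 100 strongest 15 (15%, 9.31 to 23.3). Both intervals held the overall share of 20.3%.

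The replicates ordered the desert regions alike, but at different heights. Replicate 2 had the higher fold enrichment in 2409 desert regions (89.9%), with a median ratio of 1.62 and an SD of the log2 ratio of 0.52. Spearman's rho between the replicates across desert regions was 0.742, given as a description because regions of 1 library are not independent. The median gap between the summits of a region was 28 bp, and 88.4% of gaps were within 100 bp. As the plot of the replicates shows, the cloud of points ran parallel to the line of equal values and above it.

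**Figure D2:**
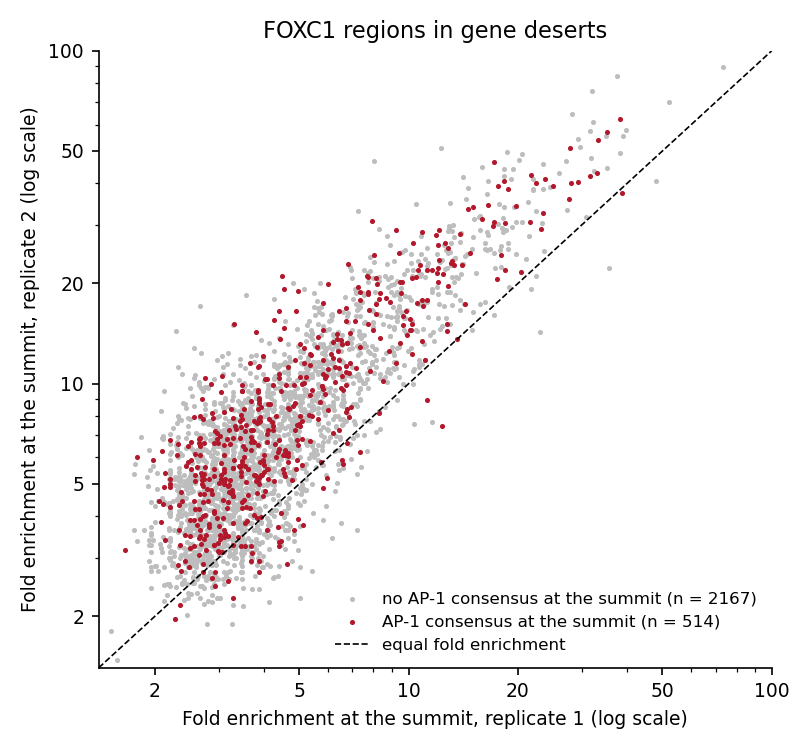
The 2681 desert regions by fold enrichment in replicate 1 (horizontal, log scale) and replicate 2 (vertical, log scale), 1 point per region; red, the 514 regions with an AP-1 consensus within 50 bp of the summit. The points lie above the dashed line of equal values in 89.9% of regions, and the 10 best-ranked regions hold no red point.

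Peaks of replicate 2, the longer list, were more often shared in deserts than in the other classes. Of the 7498 replicate 2 peaks in deserts, 2684 (35.8%, 34.7 to 36.9) were overlapped by a replicate 1 peak. The shares were 30.8% (29.9 to 31.6) for near-gene intergenic, 31.8% (31.1 to 32.5) for coding gene body and 28.6% (27.5 to 29.7) for promoter peaks. In replicate 1, 2709 of 4640 desert peaks (58.4%, 57.0 to 59.8) were overlapped, beside 58.4% near genes, 59.1% in coding gene bodies and 65.9% (64.1 to 67.7) at promoters. Desert peaks found in 1 list alone were low, and their median fold enrichment was 2.57 (replicate 1) and 3.24 (replicate 2). Peaks found in 1 list alone were about as low near genes, in coding gene bodies and at promoters. Their medians were 2.60, 2.61 and 2.61 in replicate 1 and 3.15, 3.18 and 3.25 in replicate 2.

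The forkhead consensus was present at close to 1 in 2 desert summits. It lay within 50 bp of the summit in 1322 desert regions (49.3%, 47.4 to 51.2), beside 48.6% of all shared regions. In a window of the same size centred 500 bp downstream, taken as a control for local composition, 13.5% of desert regions held it. The summit was favoured over its control (1145 regions had a match at the summit alone and 184 in the control alone; exact two-sided McNemar test, Benjamini-Hochberg adjusted over 10 motifs, p = 8.22e-169). The consensus with its letters reversed (ACAAATA or ACAAATG or ATAAATA or ATAAATG) served as a further control and was found in 16.9% of summits and 16.3% of control windows (exact McNemar test, adjusted p = 0.606). It shares ATAAATA with the forward consensus. In the other classes the reversed consensus was more frequent at summits than in control windows. The shares were 15.8% and 11.9% near genes, 17.2% and 12.4% in coding gene bodies, and 11.9% and 8.72% at promoters (exact McNemar tests, adjusted p = 3.11e-06, 6.73e-12 and 0.00310). In deserts the window 500 bp upstream held it in 14.9% of regions. The reversed consensus is therefore not a clean negative control. These tests count regions of the same 2 libraries, which are not independent replicates. The motifs were also chosen with earlier results of these data known, so the p-values are not independent evidence.

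The sequences covered by the consensus contributed unequally. GTAAACA, the classical forkhead core, was present in 19.5% of desert summits and 1.42% of control windows, 13.8 times as often. ATAAACA was present in 18.9% and 4.25%, GTAAATA in 7.31% and 2.54%, and ATAAATA in 8.50% and 6.15%. These were 4.45, 2.88 and 1.38 times as often as in the control windows. Of the desert regions, 1156 (43.1%) had 1 match to the consensus, 150 had 2, 16 had 3 or more and 1359 (50.7%) had none.

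The share of summits with the forkhead consensus exceeded that of near-gene intergenic regions by 2.02 points, an interval that included 0 (−0.523 to 4.55). The difference excluded 0 for desert regions over 200 kb from a start site (4.24 points), with windows of 100 bp to either side (2.65), and over all peaks of replicate 2 (5.27) or replicate 1 (3.19), and it was 0.0988 points among regions with a GC share of 35 to 45%. The control windows of deserts exceeded those near genes by 3.54 points (1.91 to 5.20), so the surrounding desert sequence was itself richer in such letters. The core GTAAACA differed by −0.403 points (−2.41 to 1.63). Promoters stood apart for this core, with 27.1% against 19.5% in deserts, a difference of −7.56 points (−10.1 to −5.03, and −11.2 to −3.94 when widened over the 10 motifs compared).

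The AP-1 consensus was present at 514 desert summits (19.2%, 17.7 to 20.7) and in 2.13% of control windows (adjusted p = 3.16e-95, exact McNemar test). AP-1 was known from an earlier look at these data, so this test is not independent evidence. Over all shared regions its share was 16.6%. Desert regions exceeded near-gene intergenic regions by 1.12 points, which was not distinguishable from 0 (−0.856 to 3.10). They exceeded coding gene bodies by 2.59 points (0.819 to 4.40, widened 0.0703 to 5.20) and promoters by 9.10 points (7.03 to 11.1), where AP-1 was found in 10.1% of summits. The control windows of deserts and coding gene bodies differed by 0.0574 points (−0.578 to 0.766).

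The extended forkhead element was present at 195 desert summits (7.27%, 6.35 to 8.32) and in 0.597% of control windows (adjusted p = 1.91e-40, exact McNemar test). Its share over all shared regions was 7.24%, and the difference from near-gene intergenic regions was 0.00883 points (−1.30 to 1.34). Because this element was derived from the highest peaks themselves, its frequency at summits is not independent evidence.

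The other motifs searched exceeded their control windows by at most 3.69 points at desert summits. The RUNX core TGTGGTT, bound by the RUNX1 to RUNX3 factors, was found at 5.97% of summits and 2.28% of control windows (adjusted p = 2.54e-11, exact McNemar test). The GATA core AGATAA was found at 12.2% and 9.03% (exact McNemar test, adjusted p = 0.000352), and the TEAD core CATTCCA, bound by the partners of YAP, at 3.32% and 2.31% (exact McNemar test, adjusted p = 0.0486). For GRHL, a family of epithelial factors, AACCNGTT was found at 1.04% and 0.522% (exact McNemar test, adjusted p = 0.0544). A match to the CTCF motif, which marks many insulators, was found at 3 desert summits (0.112%) and at 0 of 2681 control windows (exact McNemar test, adjusted p = 0.278). GATA was 2.23 points more frequent in deserts than near genes (0.646 to 3.85), which included 0 when widened (−0.0358 to 4.56), and in the control windows the difference was 2.57 points (1.21 to 3.96).

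**Figure D3:**
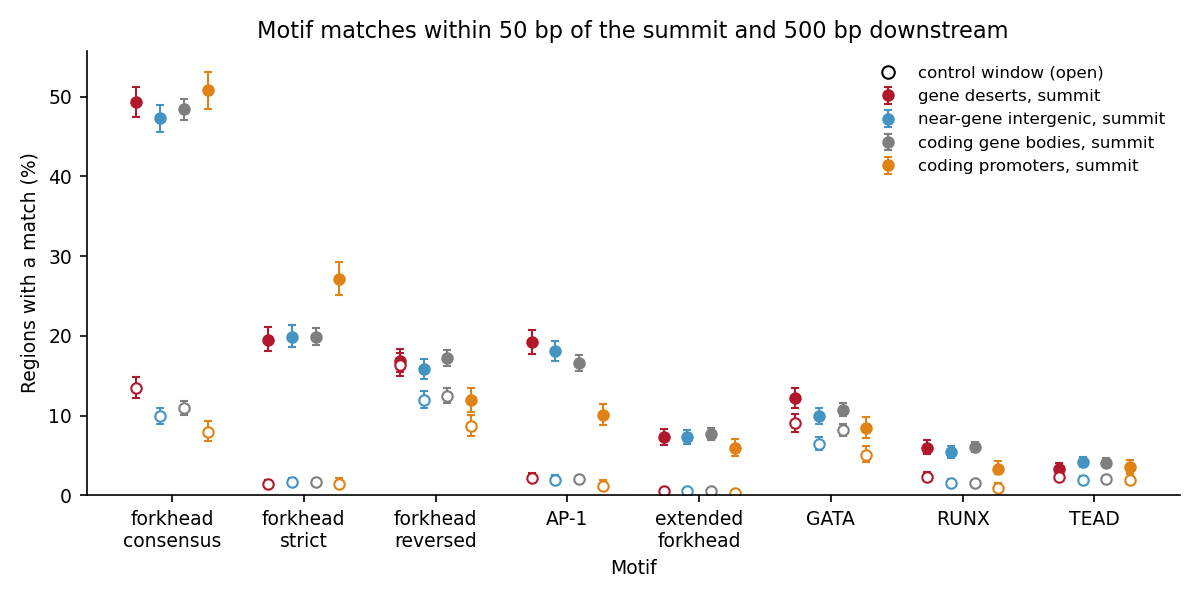
Share of regions (vertical axis, %) with a match to each of 8 motifs within 50 bp of the summit (filled) and in the control window 500 bp downstream (open), by class; bars are 95% Wilson intervals. In deserts (red) the forkhead consensus rose from 13.5% in control windows to 49.3% at summits and AP-1 from 2.13% to 19.2%, while the reversed consensus lay at 16.3% and 16.9%.

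Matches gathered around the summit to different degrees, as the plot of match positions shows. Forkhead matches peaked at the summit itself, with 117 per 1000 desert regions in the central 10 bp, and were 5.24 times as dense within 25 bp of the summit as at 200 to 250 bp. The extended element was the most tightly placed, with 59.2% of its matches within 250 bp lying within 25 bp, and a centre 17.3 times as dense as the edge. AP-1 matches were 7.14 times as dense in the centre, but spread more widely, and 24.8% of those within 250 bp lay within 25 bp. The highest AP-1 values, 25.7 and 24.6 per 1000, fell in the bins 10 bp to the left and 20 bp to the right of the summit.

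**Figure D4:**
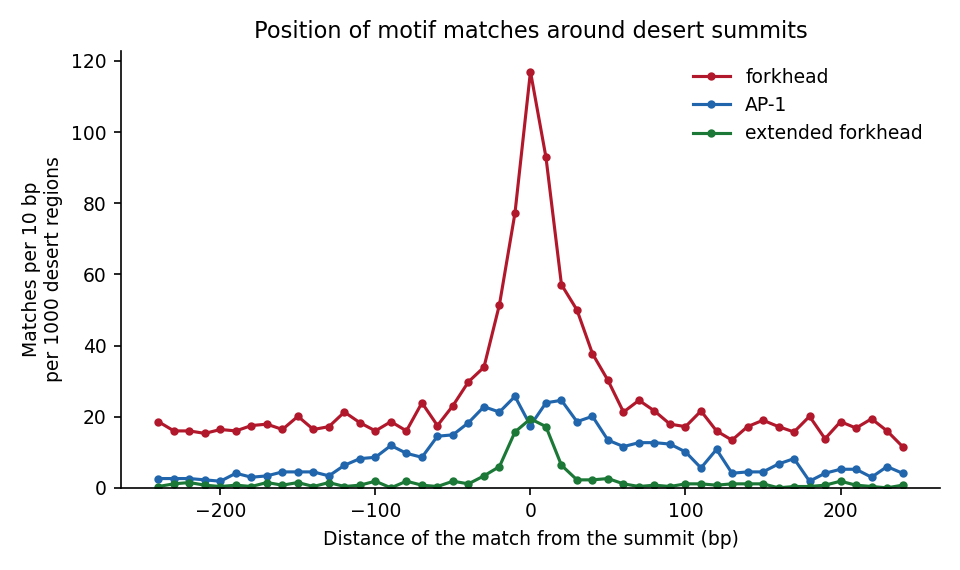
Matches per 10 bp per 1000 desert regions (vertical axis) against distance from the summit in bp (horizontal axis) for 3 motifs on either strand. Forkhead matches reach 117 at the summit, the extended element 19.4, and AP-1 forms a lower and broader hump with a maximum of 25.7.

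Desert regions with both the forkhead consensus and AP-1 had the highest fold enrichment of 4 groups. The consensus and AP-1 were together in 239 desert regions, the consensus alone in 1083, AP-1 alone in 275 and neither in 1084. The extended element was left out of this grouping, since it was derived from the highest peaks. The median fold enrichment in replicates 1 and 2 was 4.61 and 8.71 with both, 3.79 and 6.57 with the consensus alone, 3.68 and 6.53 with AP-1 alone, and 3.64 and 6.0 with neither. Of the regions with both, 73.2% (67.3 to 78.4) in replicate 1 and 71.1% (65.1 to 76.5) in replicate 2 lay above the median of those with neither. For the consensus alone the shares were 53.6% (50.7 to 56.6) and 56.4% (53.4 to 59.3). For AP-1 alone they were 51.3% (45.4 to 57.1) and 54.2% (48.3 to 60), and both intervals included 50%. A −log10 q of at least 5 in both replicates was reached by 68.6% (62.5 to 74.2) of regions with both and 47.2% (44.3 to 50.2) with neither. The median GC share of these groups was 37.7% and 38.4%. Presence of either sequence was not detectably tied to that of the other: AP-1 was present in 18.1% of desert regions with the forkhead consensus and 20.2% of those without, a difference of −2.16 points (−5.13 to 0.826).

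The forkhead consensus, AP-1 and the extended element were each more frequent in stronger desert regions, in the order of their ranks. Among the 50 strongest, 31 (62.0%, 48.2 to 74.1) held the forkhead consensus, 16 (32.0%, 20.8 to 45.8) AP-1 and 14 (28.0%, 17.5 to 41.7) the extended element. The extended element's shares by strength are a description, given how it was derived. Among the 681 weakest the shares were 43.5% (39.8 to 47.2), 15.1% (12.6 to 18) and 4.41% (3.10 to 6.22). At least 1 of these sequences was present in 86.0% of the 50 strongest and 55.8% of the 681 weakest. This pooled share includes the extended element, and AP-1 was known from an earlier look at these data. Both trends are therefore descriptions too. The 195 regions with the extended element had median fold enrichments of 5.08 and 9.15, and the 2486 without it 3.72 and 6.32.

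**Figure D5:**
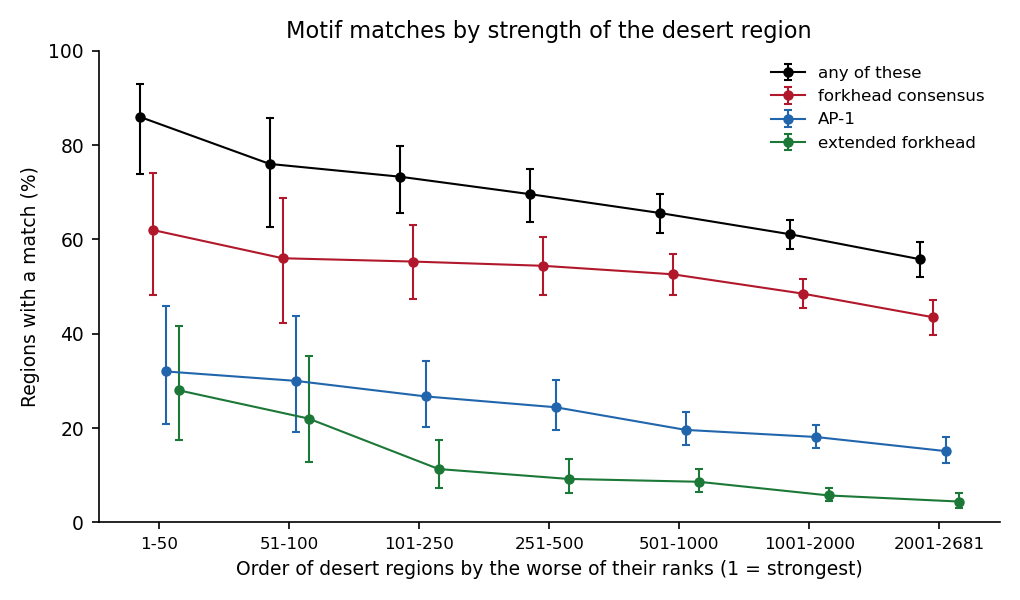
Share of desert regions (vertical axis, %) with each sequence within 50 bp of the summit, in 7 groups ordered by the worse of their ranks (horizontal axis, strongest on the left); bars are 95% Wilson intervals. All 4 lines fall from left to right, the extended element from 28.0% to 4.41% and any of the sequences from 86.0% to 55.8%. The last line includes the extended element, which was derived from the highest peaks.

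The share of desert regions with each sequence was set out by distance from genes. The forkhead consensus was present in 46.2% (43.2 to 49.2) of desert regions at 100 to 200 kb, 51.2% (48.2 to 54.3) at 200 to 500 kb, 52.2% (47.6 to 56.8) at 500 to 1000 kb and 49.1% (41.7 to 56.6) beyond. The AP-1 consensus was present in 17.8%, 20.9%, 17.9% and 20.5% of these classes. The intervals of these classes overlapped, and their differences were not tested.

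A few desert regions resembled another shared region in sequence. In 50 of them (1.86%, 1.42 to 2.45) the 201 bp at the summit aligned over at least 100 bp with that of another shared region, beside 2.03% near genes and 0.615% at promoters. The group with the most desert regions held 15 shared regions with a median identity of 84.4%. Of these, 8 were desert regions, on 6 chromosomes, and their fold enrichments were low, from 2.55 to 5.23 in replicate 1. A further group had 4 desert regions on 4 chromosomes, all with the forkhead consensus and 3 with the extended element, and its values in replicate 1 ran from 3.49 to 21.6. Reads from similar copies can be hard to place, less so the more the copies differ, and their part in these values was not tested.

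Many desert regions lay in genes for lncRNAs, which the definition of a desert did not consider. Of the 2681, 1012 (37.7%, 35.9 to 39.6) had their summit in an annotated lncRNA gene body, and 621 lncRNA genes held such a summit. Annotated lncRNA gene bodies covered 32.0% of desert sequence. The density was 3.87 per Mb inside and 3.0 per Mb outside them. Within 2 kb of a lncRNA start site there were 158 desert regions (5.89%, 5.06 to 6.85) on 2.81% of desert sequence, or 6.87 per Mb. Strength differed little, with median fold enrichments of 3.87 and 6.68 inside lncRNA genes and 3.76 and 6.34 outside. The lncRNA genes with the most desert regions included FILNC1 with 10, MSRB3-AS1 and SLC38A4-AS1 with 9 each, and CASC15, LINC00511 and PVT1 with 8 each. The strand and expression of these transcripts were not measured by this assay.

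Desert regions came in runs. A further desert region lay within 10 kb of 574 of them (21.4%, 19.9 to 23) and within 50 kb of 1369 (51.1%, 49.2 to 53.0). Joining neighbours at most 50 kb apart gave 525 runs of 2 or more, and 1312 regions stood alone. The longest run held 11 regions over 201 kb between MSRB3, a methionine sulfoxide reductase gene, and HMGA2, a chromatin architectural factor of embryonic and tumour cells, whose start sites were 151 and 129 kb away. Their fold enrichment ran from 2.52 to 14.2 in replicate 1 and from 2.91 to 20.1 in replicate 2. A run of 10 regions occupied 71.1 kb in FILNC1, 321 kb from CITED2, and was the densest of the 5 longest, with values from 2.35 to 13.2 and from 2.92 to 28.6. Within it, 6 of 10 summits held the forkhead consensus, beside 2 of 11 in the MSRB3 to HMGA2 run.

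The next run held 9 regions over 155 kb between ZNF217, a zinc-finger gene on chromosome 20, and BCAS1, with fold enrichments from 1.95 to 7.45 in replicate 1 and 2.52 to 17.6 in replicate 2. Its median background in replicate 1 was 7.19 reads, above the 5.39 of all desert regions. Runs of 7 lay between TNC, which encodes an extracellular matrix protein, and PAPPA (81.0 kb, 2.2 to 17.2 and 3.35 to 30.6), and between RWDD3 and PTBP2 (82.8 kb, 3.09 to 12.9 and 3.92 to 25.6). Other runs of the same size fell outside the naming rule and were looked at after their values were known. Their median background in replicate 1 was 10.8 reads beside TFAP2A, 8.88 beside SOX4 and 4.65 between CCDC171 and BNC2. In the named runs it was 5.35 from MSRB3 to HMGA2, 4.32 beside CITED2, 6.31 from TNC to PAPPA and 5.84 from RWDD3 to PTBP2. The medians of these runs thus lay between 4.32 and 10.8 reads, on both sides of the 5.39 of all desert regions. The part of background in the number of regions per run was not tested.

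The coding genes nearest to the most desert regions were ranked by the number of those regions. In all, 1061 coding genes were nearest to at least 1 desert region, and 146 genes to 5 or more. CITED2, a co-regulator that binds CBP and p300, was nearest to 25 desert regions at 321 to 1198 kb, with median fold enrichments of 4.45 and 8.45. GATA3, a luminal and urothelial differentiation factor, was nearest to 15 at 153 to 1247 kb, with medians of 2.74 and 5.30. TLE4, a corepressor of the Groucho family, was nearest to 15 at 102 to 612 kb, with medians of 3.32 and 5.42. NR2F1, an orphan nuclear receptor, and SOX9, a factor of cartilage and epithelial progenitors, were nearest to 14 each, with medians of 3.27 and 4.75 and of 4.14 and 6.89. MYC, on chromosome 8, was nearest to 13 at 113 to 927 kb, and 9 of these had a −log10 q of at least 5 in both replicates. The strongest of the MYC regions reached fold enrichments of 29.7 and 51.4. TFAP2A, an AP-2 factor of neural crest and epidermis, was nearest to 13, with medians of 2.97 and 4.39.

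The other genes of the 10 were FLRT2 with 16 desert regions, HAS2 with 12 and SLITRK1 with 12. FLRT2 encodes an adhesion and guidance protein, HAS2 the synthase of hyaluronan, and SLITRK1 a neuronal transmembrane protein. Their regions had median fold enrichments of 3.44 and 6.61, 3.62 and 5.61, and 3.83 and 8.21 in replicates 1 and 2. TLE1 was tied with these last at 12. The nearest gene says only which coding start site is closest, not which gene a region acts on, and large deserts offer more room for regions.

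The size of the deserts was taken into account by setting each gene list beside the sequence nearest to it. Local background and copy number were not taken into account, and their part in these densities was not tested. The 4 lists were drawn up with earlier results of these data known. Developmental transcription factors were the nearest genes of 195 desert regions (7.27%, 6.35 to 8.32), on 5.26% of desert sequence, which is 4.53 per Mb beside 3.28 in all deserts. Secreted developmental signals were nearest to 41 (1.53%, 1.13 to 2.07) on 1.15% of the sequence, or 4.36 per Mb. Neural adhesion and guidance genes were nearest to 216 (8.06%, 7.09 to 9.15) on 10.4% of the sequence, or 2.54 per Mb. Transporters and channels were nearest to 49 (1.83%, 1.39 to 2.41) on 1.90%, or 3.15 per Mb. The share of the transcription factors lay above their share of desert sequence and that of the neural genes below it. The intervals of the signals and the transporters included theirs. These intervals are no test, because the lists were not chosen blind and regions that lie in runs are not independent. Single genes held many of the regions: among the transcription factors, GATA3 was nearest to 15, NR2F1 and SOX9 to 14 each, and MYC and TFAP2A to 13 each. In near-gene intergenic regions the lists, in the same order, took 2.87%, 1.97%, 0.837% and 0.688% of regions.

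Among the secreted signals, INHBA and KITLG were nearest to 5 desert regions each and CXCL12 to 4. INHBA encodes an activin subunit, KITLG the ligand of the KIT receptor and CXCL12 a chemokine. The strongest of the KITLG regions had fold enrichments of up to 16.6 and 34.4, and of the CXCL12 regions up to 17.0 and 29.7. Among the neural adhesion genes, CDH2, which encodes N-cadherin, was nearest to 10 desert regions, of which 8 had a −log10 q of at least 5 in both replicates. PCDH9, a protocadherin gene, and SLIT2, which encodes a guidance ligand, were nearest to 9 each. Among the transporters, SLC16A7 was nearest to 8, which include the region in the list of the 12 strongest.

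The longest intervals between coding genes were unevenly filled. Of 350 intervals of over 1 Mb between neighbouring coding start sites, which can include long gene bodies and unsequenced gaps, 262 held at least 1 desert region and 88 held none. These intervals together held 1396 desert regions (52.1% of the 2681), with a median of 2 and a maximum of 31 in an interval.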

How the data were processed

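FOXC1 ChIP-seq of J82 cells comprised 2 ChIP replicates and 2 inputs, grouped and numbered by the sample titles. The authors mapped single-end reads of 75 bp to hg19 with bwa, called peaks per replicate against input with MACS2 2.2.7.1 and later applied a reproducibility step, which the lists used here do not mark. The deposited lists held 22393 and 41750 peaks. They give a score (10 times the −log10 p, truncated), a fold enrichment (a ratio of pileup to local background, each with 1 added), and the −log10 of the p-value and of the q-value, all computed by the authors before deposit. The deposited files hold no read totals. Reads and background at each summit were solved from fold and −log10 p, with a residual of at most 0.001 plus 0.0002 of the value, and a scale of 0.9041 for replicate 2. Their medians over all peaks were 18 and 23 reads.

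Peaks overlapping by 1 bp were merged and placed by GENCODE version 44 lifted to GRCh37, the files' build. Motifs were searched on both strands within 50 bp of the summit and 500 bp downstream, towards higher coordinates. Exact McNemar tests were adjusted over 10 motifs. Shares carry 95% Wilson intervals and differences 95% Newcombe intervals, also widened by Bonferroni correction. Statements of strength use the share of desert regions above the median of the compared group. Alike sequences were found with blastn 2.17.0 (E-value limit 1e-10). Python 3.11.15, scipy 1.17.1 and pysam 0.24.0 were used, and the code was tested on simulated data.

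The members, motifs, gene lists and tests were chosen with earlier results of these data known. Named were the 12 desert regions with the best worse-rank, the 5 longest runs, the 5 farthest regions, 3 on either side of 100 kb and the 10 coding genes nearest to the most regions; genes named within the lists are those with the most regions. Regions are not independent replicates. Input files and the study's expression and H3K27ac data were not analysed here. Alternatives covered the distance limit, peak filters, summit choice, motif window and single replicates. The grouping by forkhead consensus and AP-1 was set after the data were seen.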

Additional observations from a re-analysis of the deposited data

How the results depend on the processing

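The share of shared regions in deserts followed the definition: it was 20.3% as reported, 22.3% with gene starts only in place of all transcript starts, 12.5% at over 200 kb and 28.1% at over 50 kb. Over all peaks of 1 replicate it lay between 18% (without replicate 1) and 20.7% (without replicate 2). The forkhead, AP-1 and extended elements stayed above their control windows under every alternative run. The comparison of strength in replicate 2 did not hold in the single list, where peaks of 1 list alone entered. The share of desert regions above the near-gene median turned from 46.6% to 53.2% without replicate 1, and both intervals excluded 50%. In replicate 1 it was 51.1% as reported and 49.8% without replicate 2, and both intervals included 50%. The cause of the change in replicate 2 was not tested. The difference from near-gene intergenic regions at a −log10 q of at least 5, 0.898 points as reported, was 4.88 points, past its threshold, without replicate 1 and 0.908 without replicate 2. With only peaks at that limit the comparison gives no value, since all regions pass.

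The difference in the forkhead consensus between desert and near-gene intergenic regions, 2.02 points, excluded 0 at over 200 kb (4.24) and with windows of 100 bp to either side (2.65), and reversed to −0.403 for GTAAACA alone. Without replicate 1 it was 5.27 and without replicate 2 3.19. At a GC share of 35 to 45% it was 0.0988. The AP-1 difference, 1.12 points, was 1.44 without replicate 1 and 1.23 without replicate 2, both excluding 0, and 0.0910 at a GC share of 35 to 45%. The share in lncRNA genes, 37.7%, was between 35.9% and 37.7% in the single lists. The share within 10 kb of another desert region, 21.4%, was 19.6% at over 200 kb, 12% with peaks of −log10 q of at least 5 only, 51.1% within 50 kb, and between 24.2% and 37.7% in the single lists, which hold more peaks. No paired analysis was possible because the groups that share replicate numbers are ChIP and input, and no files of the inputs were analysed here; the McNemar tests pair windows within a region, not libraries. Of the alternatives, 71 of 91 kept the direction and the side of the threshold or stayed within the interval.

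With 2 ChIP replicates, statements rest on regions of these cultures only. Weak regions limit precision: the median desert region had 25 and 44 reads at its summit.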
